A study of Mus musculus with 4 samples.

Results

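The GATA, TAL1 and LMO2 complex genes are 10 protein-coding genes, Gata1, Gata2, Gata3, Tal1, Lyl1, Lmo2, Ldb1, Zfpm1, Tcf3 and Nfe2, of 21779 protein-coding genes considered. They were chosen by name for their roles in blood transcription, and all 10 were found in the gene table. For each gene, the called peaks that overlapped the gene body or the 1 kb on either side of it were collected from every library. The libraries were made by CUT&Tag, which marks the DNA around an antibody's target with adapters for sequencing, placed there by a transposase that the antibody recruits. They came from primary haematopoietic stem cells of mouse bone marrow, and the mice carried wild-type Ppp2ca. An antibody to PPP2CA, the catalytic subunit of the phosphatase PP2A, was used in 2 libraries (PPP2CA 1 and 2), and control immunoglobulin G in 2 (IgG 1 and 2). The study's purpose was to locate the genomic sites occupied by PPP2CA. All libraries share the genotype and tissue, and no treatment is named. Age, sex and strain were not given in the sources used here, and neither was the way the stem cells were isolated. The design text names 100000 primary cells for the assay kit. Whether the 2 libraries with the same antibody stem from separate animals is not stated, so their spread may be technical.

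In blood stem and progenitor cells the products of several of these genes form a transcription factor complex. GATA factors bind GATA sites in DNA, and TAL1 or its relative LYL1 binds E-boxes as a dimer with an E protein such as the product of Tcf3. LMO2 and LDB1 do not bind DNA themselves and bridge the DNA-bound factors. Zfpm1 encodes FOG1, a cofactor of GATA1, and Nfe2 encodes the blood-specific subunit of NF-E2, a separate factor of megakaryocytes and erythroid cells. Gata2 is the GATA gene of stem cells, Gata1 that of erythroid, megakaryocytic and mast cells, and Gata3 that of T cells.

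The PPP2CA lists held 16811 and 17686 peaks and the IgG lists 561 and 310. The number of fragments at each peak summit was recovered from the deposited values. A fold is the authors' own ratio of a peak's summit to a background around it, called the local background. Whether that background came from the same library or from IgG is not stated. The IgG libraries were shallow: the genome-wide background was 9.34 to 9.61 times lower than in the PPP2CA libraries, and 61.3% and 58.7% of the IgG summits held fewer than 5 fragments. Peak lists hold no expression, so the labelled cell type could not be checked by RNA. Among marker genes, a recurring PPP2CA region at a gene end was found at 2 of 6 stem cell markers (Kit and Mecom), 1 of 6 T cell markers (Cd3d), 1 of 5 erythroid markers (Epor), 0 of 5 myeloid and 0 of 4 B cell markers, beside 39.5% of all protein-coding genes, so these counts do not tell cell types apart.

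PPP2CA peaks at the complex genes recurred most clearly at the ends of 5 of them. A region, meaning a stretch with a peak in both PPP2CA libraries and in neither IgG library, lay within 1 kb of a gene boundary at Lyl1, Zfpm1, Tcf3, Nfe2 and Tal1. Over all protein-coding genes 39.5% had such a region, so 5 of 10 is near the background and is no result about the group. Lmo2 and Ldb1 had a recurring region inside the gene alone, as did 5.79% of protein-coding genes. A region at a boundary or inside was thus present at 7 of 10 members, against 45.3% of protein-coding genes. Gata2 had peaks that did not recur, and Gata1 and Gata3 had no PPP2CA peak in either library. Each PPP2CA library held 14 peaks at the 10 genes, of which 8 overlapped a peak of the other library, against 75.5% of all PPP2CA 1 peaks and 71.6% of all PPP2CA 2 peaks.

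**Figure D1:**
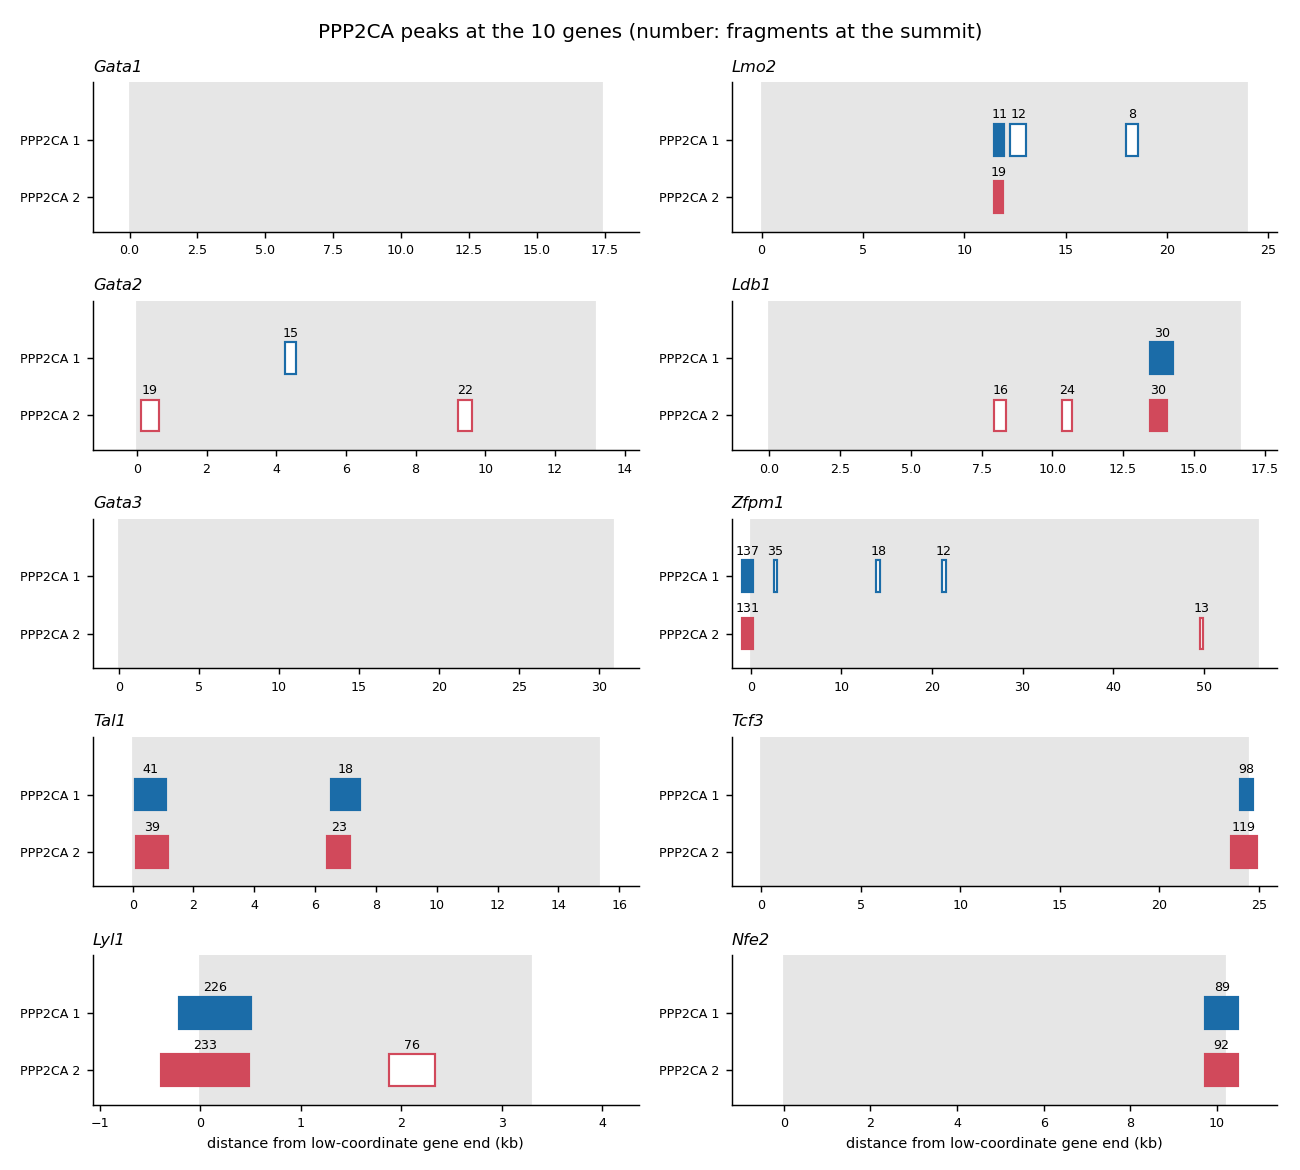
Peaks of PPP2CA 1 (blue) and PPP2CA 2 (red) at each of the 10 genes, by distance in kb from the low-coordinate end of the gene (grey band, the gene body). Filled boxes overlap a peak of the other library, open boxes do not, and the number above a box is the fragments at its summit. Lyl1, Zfpm1, Tcf3, Nfe2 and Tal1 have filled boxes at a gene end, while Gata1 and Gata3 are empty.

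RefSeq promoter windows of GRCm38.p6, from 250 bases before to 50 bases after a start, were matched for 8 of the 10 genes, 12 windows in all. Nfe2 and Lmo2 had no entry. The windows shown here are those within 1 kb of the recurring regions of Lyl1, Tcf3, Zfpm1, Tal1 and Ldb1, and that of Gata1, which had no peak. Of the 2 Tal1 windows, the region overlaps the one at the higher coordinates, which holds neither motif, and not the other. That overlap is at the region's edge and comes from PPP2CA 2 alone, since the PPP2CA 1 peak ended at chr4:115057508. Both summits lay between the 2 windows, nearer the one at the lower coordinates. Capitals mark the core GATA motif GATAA on either strand (TTATC on the printed strand) and the E-box CANNTG, the motifs that the complex itself is known to bind.
Lyl1 (chr8:84701207-84701506, plus strand): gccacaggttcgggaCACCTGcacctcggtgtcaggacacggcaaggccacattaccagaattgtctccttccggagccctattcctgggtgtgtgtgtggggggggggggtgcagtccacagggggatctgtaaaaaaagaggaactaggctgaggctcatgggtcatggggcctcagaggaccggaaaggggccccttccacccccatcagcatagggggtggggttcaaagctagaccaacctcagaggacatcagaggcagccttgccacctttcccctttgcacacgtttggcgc
Tcf3 (chr10:80433586-80433885, minus strand): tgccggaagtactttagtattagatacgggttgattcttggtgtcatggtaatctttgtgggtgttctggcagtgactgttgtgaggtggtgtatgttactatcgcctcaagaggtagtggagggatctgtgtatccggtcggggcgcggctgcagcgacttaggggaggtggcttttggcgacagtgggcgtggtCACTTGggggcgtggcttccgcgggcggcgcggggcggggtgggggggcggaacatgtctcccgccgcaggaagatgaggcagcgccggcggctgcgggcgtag
Zfpm1 (chr8:122281891-122282190, plus strand): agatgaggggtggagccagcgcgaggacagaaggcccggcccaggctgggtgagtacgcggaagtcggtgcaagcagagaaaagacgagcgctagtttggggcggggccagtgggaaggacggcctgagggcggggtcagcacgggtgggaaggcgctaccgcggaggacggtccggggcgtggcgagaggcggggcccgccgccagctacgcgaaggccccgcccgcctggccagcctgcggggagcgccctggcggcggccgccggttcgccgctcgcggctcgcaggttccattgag
Tal1 (chr4:115056176-115056475, plus strand): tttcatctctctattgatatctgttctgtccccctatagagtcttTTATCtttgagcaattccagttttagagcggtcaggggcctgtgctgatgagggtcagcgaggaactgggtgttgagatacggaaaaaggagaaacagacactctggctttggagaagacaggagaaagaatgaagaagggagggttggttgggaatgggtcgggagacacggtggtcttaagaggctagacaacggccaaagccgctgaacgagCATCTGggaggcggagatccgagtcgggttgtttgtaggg
Tal1 (chr4:115057561-115057860, plus strand): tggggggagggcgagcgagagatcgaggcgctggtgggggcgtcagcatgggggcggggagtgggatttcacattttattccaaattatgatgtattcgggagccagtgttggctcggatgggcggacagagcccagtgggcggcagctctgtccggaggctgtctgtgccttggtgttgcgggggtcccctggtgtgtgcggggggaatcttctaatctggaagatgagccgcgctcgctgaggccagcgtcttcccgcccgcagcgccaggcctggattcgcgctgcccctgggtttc
Ldb1 (chr19:46045262-46045561, minus strand): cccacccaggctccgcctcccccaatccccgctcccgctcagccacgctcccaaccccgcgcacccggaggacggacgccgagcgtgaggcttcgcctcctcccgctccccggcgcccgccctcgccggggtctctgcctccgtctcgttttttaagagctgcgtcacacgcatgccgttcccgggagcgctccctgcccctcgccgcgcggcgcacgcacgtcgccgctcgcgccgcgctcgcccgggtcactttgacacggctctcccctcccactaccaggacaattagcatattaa
Gata1 (chrX:7967861-7968160, minus strand): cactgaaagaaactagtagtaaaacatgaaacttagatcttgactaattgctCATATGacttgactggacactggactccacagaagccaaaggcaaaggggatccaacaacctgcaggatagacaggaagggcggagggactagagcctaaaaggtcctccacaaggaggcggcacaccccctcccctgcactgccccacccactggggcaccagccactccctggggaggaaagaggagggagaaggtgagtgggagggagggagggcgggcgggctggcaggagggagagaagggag

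The complex's own motifs stood in some of the windows. GATAA was found in 2 of the 12 windows (the first Tal1 start and the Ldb1 start at the lowest coordinate), against 25.4% of all 32851 promoter windows. The same 2 windows held the longer form AGATAA, found in 11.2% of all windows. The E-box was found in 7 of the 12, against 72.3% of all windows, and the NF-E2 motif TGACTCAGC in 0, against 0.454%. All motifs were searched on both strands, and a match is a description of the letters in the window only.

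Base composition differed widely between the members. The Zfpm1 window held 37 CpG dinucleotides and 73.7% G and C, the Ldb1 window shown 41 and 71.3%, the Tcf3 window 25 and 61.7%, the Tal1 windows 11 and 50.7% at the first start and 22 and 64.3% at the other, the Lyl1 window 7 and 60.0%, and the Gata1 window 4 and 57.3%. The median window of a protein-coding gene held 13 CpG. Over the 17492 protein-coding genes with a window, sorted into 4 classes of similar size by the CpG number of their richest window, 4.68%, 31.3%, 63.4% and 67.7% from the poorest to the richest class were marked at a boundary. Gata1 lay in the poorest class. Lyl1 lay in the next and had the best-ranked region of the group, while Gata2 lay in the richest and had no recurring region. Gata3, with 22 CpG, lay in the same class as Tal1 and Tcf3 and had no peak. Whether base composition has a part in which members were marked was not tested.

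Lyl1, a basic helix-loop-helix factor that can stand in for TAL1 in stem cells, carried the most fragments of the group. Its region lay at chr8:84701031-84701929 on GRCm38, across the start of the gene (chr8:84701423-84704716). The summit held 226 fragments in PPP2CA 1 (95% exact Poisson interval 197 to 257) and 233 in PPP2CA 2 (204 to 265), and lay 64 bases after the RefSeq start in both. These intervals do not overlap those of any other member, and they cover counting error only. By −log10 q the region ranked 216 of 12438. Among 8609 protein-coding genes with a region at a boundary Lyl1 ranked 210, next below Klf16, a Kruppel-like zinc finger gene (164 and 201 fragments), and next above Abhd11 (186 and 194).

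The fold at Lyl1 was modest for so high a summit. It was 7.17 and 6.65, and 27.9% and 32.3% of the peaks of these libraries had a higher fold. The local background there was 30.7 and 34.2 fragments, 39.1 and 42.7 times the genome-wide background, and it was higher at only 0.880% and 0.876% of peaks. Peaks of 64 and 68 fragments lay just outside the gene, 1010 and 1041 bp before it, and so were not counted. Just inside the limit was a peak of 76 fragments in PPP2CA 2 alone, at chr8:84703305-84703755 near the far end of Lyl1, with a fold of 2.03. The far end of Lyl1 overlaps the end of its neighbour Nfix in the gene table, so the gene to which that signal belongs cannot be told apart.

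Tcf3, which encodes the E proteins E12 and E47, stood highest by fold. Its region at chr10:80433134-80434444 crossed the high-coordinate end of the gene (chr10:80409541-80433976), where the gene starts. The summit held 98 fragments in PPP2CA 1 (79.6 to 119) and 119 in PPP2CA 2 (98.6 to 142), with a fold of 11.5 and 11.2 over a local background of 7.61 and 9.75 fragments. Only 2.37% and 2.26% of the libraries' peaks had a higher fold. The summits of the 2 libraries lay 2 bp apart, 312 and 310 bases before the RefSeq start.

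Zfpm1, the gene of the GATA cofactor FOG1, held 137 fragments in PPP2CA 1 (115 to 162) and 131 in PPP2CA 2 (110 to 155). The region at chr8:122280866-122282081 covered the low-coordinate end of the gene (chr8:122281856-122337862), and its summits lay 455 and 418 bases before the RefSeq start. The RefSeq start of Zfpm1 lies just past the end of the region. The only start of the promoter table inside it is that of the lncRNA gene Gm39269, annotated on the other strand, and CUT&Tag peaks carry no strand. The fold was 9.33 and 8.28. Zfpm1 also held 4 weaker peaks inside the gene, 3 in PPP2CA 1 (35, 18 and 12 fragments) and 1 in PPP2CA 2 (13 fragments), none of which recurred.

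Nfe2 (chr15:103248212-103258403) carried a region at its high-coordinate end, chr15:103257933-103258709. It held 89 fragments in PPP2CA 1 (71.5 to 110) and 92 in PPP2CA 2 (74.2 to 113), with a fold of 8.87 and 7.90. Outside the window, 7303 and 7281 bp beyond the other end of Nfe2, lay peaks of 221 and 224 fragments at the gene of the RNA-binding protein Hnrnpa1. There IgG 1 also had a peak, of 8 fragments.

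Tal1, the basic helix-loop-helix gene at the centre of the complex, was lower. Its boundary region at chr4:115056497-115057601 held 41 fragments in PPP2CA 1 (29.4 to 55.6) and 39 in PPP2CA 2 (27.7 to 53.3). The gene lies at chr4:115056426-115071755. The summits lay 371 and 504 bases after the first RefSeq start and before the other start, which lies 1385 bases into the gene. The fold, 7.32 and 7.40, was close to that of Lyl1 although the summit was far lower, over a local background of 4.74 and 4.40 fragments. The region ranked 3155 of 12438, and boundaries of the lncRNA genes Gm52674 and Gm33786 lay within 1 kb of it.

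**Figure D2:**
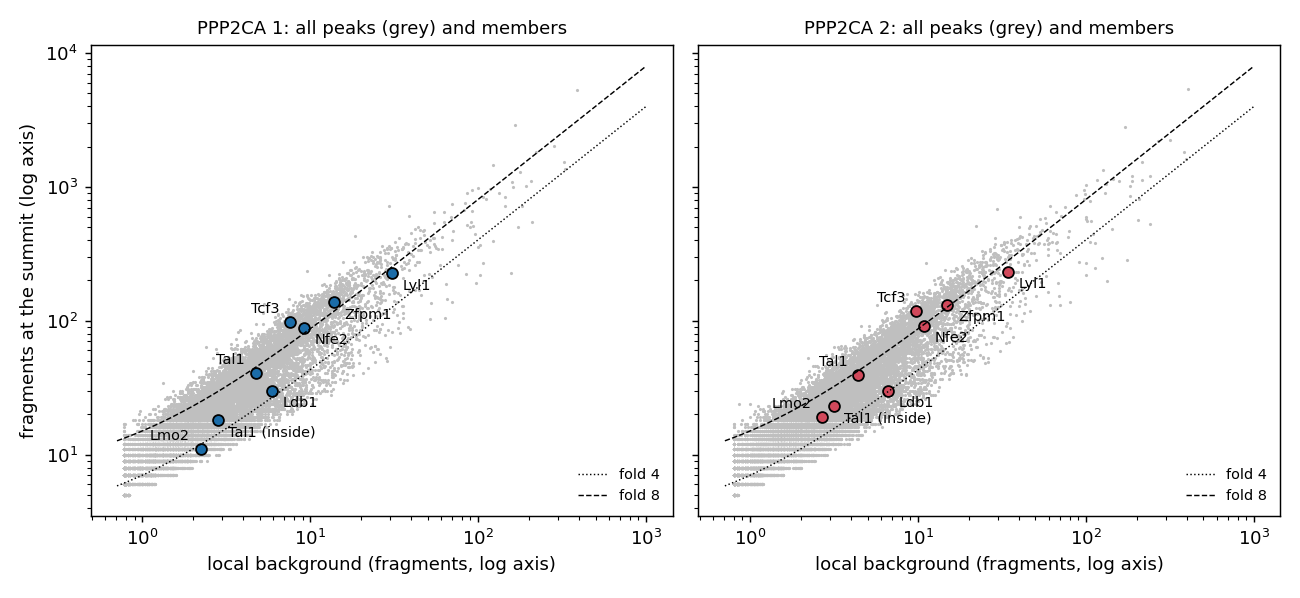
Fragments at the summit against local background, both on log axes, for all peaks of PPP2CA 1 (left) and PPP2CA 2 (right) in grey and for the members' recurring peaks in colour. The dotted and dashed lines mark a fold of 4 and 8. Lyl1 has the highest summit and the highest background of the members, 30.7 and 34.2 fragments, while Tcf3 has the highest fold, 11.5 and 11.2.

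By summit fragments, averaged over both libraries, the order of the recurring regions was Lyl1, Zfpm1, Tcf3, Nfe2, Tal1 at its start, Ldb1, Tal1 inside and Lmo2. The counting intervals of neighbours in this order were apart in both libraries between Lyl1 and Zfpm1 and between Nfe2 and Tal1, and they overlapped between all other neighbours. At 6 of these 8 regions the summits of the 2 libraries lay within 100 bp of each other, and their fragments were compared by an exact two-sided binomial test against the share of PPP2CA 1 over 6930 such summits, 47.89%. The share from PPP2CA 1 was 49.2% at Lyl1 (exact Clopper-Pearson interval 44.6 to 53.9), 51.1% at Zfpm1 (45.0 to 57.2) and 45.2% at Tcf3 (38.4 to 52.0). None of the 6 was called by this exact test (Benjamini-Hochberg adjusted p = 1.0 for each, unadjusted p from 0.273 to 0.766), against 0.0577% of all shared summits. The interval at Lmo2, 19.9 to 56.1%, is wide, so a sizeable difference between libraries would not have been detectable there. This compares 2 libraries, not conditions.

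**Figure D3:**
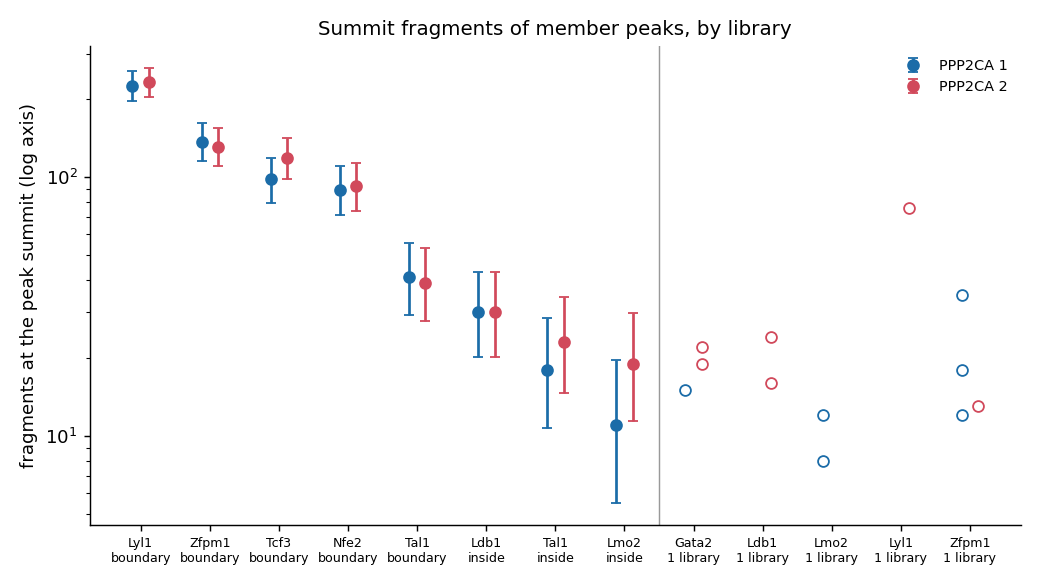
Fragments at the peak summit on a log axis, with 95% exact Poisson intervals, for the recurring regions in order of level and, to the right of the line, for peaks found in 1 library only (open circles). The PPP2CA 1 and PPP2CA 2 intervals overlap at each recurring region, and Lyl1 lies at 226 and 233, above all others.

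Inside the genes, recurring regions away from the boundaries were found at Ldb1, Tal1 and Lmo2, 3 of 10 members, against 10.7% of protein-coding genes. With PPP2CA 1 or PPP2CA 2 left out the count was 5, with Gata2 and Zfpm1 added, against 16.7% and 15.6% of protein-coding genes. With −log10 q of at least 5 it was 2, Tal1 and Ldb1, against 7.7%, and Lmo2 was lost. With only summits of 20 or more fragments it was 1, Ldb1, against 5.18%. Summits at these 3 places held 11 to 30 fragments, against 39 to 233 at the members' boundaries.

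Ldb1, whose product dimerises and can bring distant DNA sites together, held 30 fragments in each library (20.2 to 42.8) at chr19:46044980-46045805. The fold was 4.48 and 4.08. The gene table ends Ldb1 at 46048145, but the promoter table has a start within this region, and the summits lay 204 and 16 bases after it. With the 1 kb on either side of the promoter table's starts in place of the gene boundaries, an alternative chosen after the data were seen, the marked members were Tal1, Lyl1, Ldb1, Zfpm1 and Tcf3, 5 of the 8 with an entry, against 41.5% of the protein-coding genes in that table. Peaks of 16 and 24 fragments elsewhere in Ldb1 were found in PPP2CA 2 alone.

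The region inside Tal1, at chr4:115062814-115063914, held 18 fragments in PPP2CA 1 (10.7 to 28.4) and 23 in PPP2CA 2 (14.6 to 34.5), 6797 and 6866 bases from the low-coordinate end of the gene. Lmo2, the LIM-only bridging protein, had its region at chr2:103969385-103969862, in the middle of the gene (chr2:103957903-103981878). It held 11 fragments in PPP2CA 1 (5.49 to 19.7) and 19 in PPP2CA 2 (11.4 to 29.7) and ranked 11550 of 12438. A further 2 Lmo2 peaks, of 12 and 8 fragments, were found in PPP2CA 1 alone, and neither end of Lmo2 had a peak. The gene table gives no exons, so exons, introns and UTRs were not assigned.

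The GATA genes themselves had no recurring region. Gata2 (chr6:88193891-88207032) held 3 peaks at 3 different places. PPP2CA 1 had a peak of 15 fragments (8.40 to 24.7) at chr6:88198145-88198455, with its summit 308 bases before the second RefSeq start. PPP2CA 2 had a peak of 19 fragments (11.4 to 29.7) at chr6:88193999-88194533, 266 bases after the first start, and a peak of 22 (13.8 to 33.3) at chr6:88203104-88203523, with its summit 9216 bases into the gene. An enhancer inside Gata2 that the complex binds is well known, but the sources used here do not give its position and the peak was not matched to it. Peaks of 1 library alone, with no recurring region in the gene, occurred at 11.1% of protein-coding genes. In PPP2CA 1 and 2 the median summit held 9 fragments for peaks that did not recur, and 24 and 26 for those that did. By fold the Gata2 peaks were low. The PPP2CA 1 peak had a fold of 3.26, and 97.3% of that library's peaks had a higher one. The PPP2CA 2 peaks of 19 and 22 fragments had folds of 3.18 and 4.23, with 97.7% and 77.7% of peaks higher.

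Gata1 (chrX:7959260-7976663) and Gata3 (chr2:9857078-9887953) had no PPP2CA peak within 1 kb of the gene body in either library, as was the case for 43.1% of protein-coding genes, and none within 10 kb. The lowest called summit in either PPP2CA list held 5 fragments, so signal below what was called cannot be seen in these lists.

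No IgG peak lay within 1 kb of any of the 10 genes, against 2.08% of protein-coding genes with a peak of either IgG library. At IgG depth a signal equal with both antibodies would come to 23.5 to 24.9 fragments at Lyl1, 13.6 to 14.7 at Zfpm1, 10.2 to 12.7 at Tcf3, 9.26 to 9.85 at Nfe2 and 4.06 to 4.39 at the start of Tal1. The lowest summit called in an IgG list held 3 fragments. At Ldb1 the same signal would come to 3.12 to 3.21 fragments, inside Tal1 to 1.87 to 2.46 and at Lmo2 to 1.15 to 2.03. Inside Tal1 and at Lmo2 these expected values lie below that lowest called summit, so an equal signal could easily have been missed with IgG. The local background at Ldb1 was 7.55 and 8.24 times the genome-wide background. Whether an equal signal would have been called there, or at the start of Tal1, cannot be told.

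A list of partner genes was looked at in the same way, with no test between lists. The list is mixed. Beside genes whose products act with the complex or with NF-E2, it holds the Nfe2 relatives Nfe2l1, Nfe2l2 and Bach1. It also holds Id1, Id2 and Id3, whose products oppose E proteins. Chd4, Hdac1, Hdac2, Mta2, Rbbp4, Kdm1a and Rcor1, genes of chromatin complexes, and Sp1 are on it too, and each had a region at a boundary. Of 32 such partner genes, 28 (87.5%) had a region at a boundary, beside 39.5% of all protein-coding genes. The best ranked were Nfe2l2, the gene of the stress-response factor NRF2 (342 and 382 fragments), Sp1 (282 and 315) and the small MAF gene Maff (205 and 220). Erg and Fli1, ETS factors that share many sites with the complex, had a region inside the gene alone, Id1 had only peaks that did not recur, and Ldb2, the paralogue of Ldb1, had no PPP2CA peak and an IgG peak.

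A further list held genes known as targets of the complex or of GATA factors in erythroid, megakaryocytic, mast and T cells. Of these, 8 of 30 (26.7%) were marked at a boundary, beside the same 39.5%. With only summits of 20 or more fragments the count was 5, and the share of all protein-coding genes fell to 26.6%. Among the best ranked were the transferrin receptor gene Tfrc (95 and 95 fragments) and the stem cell factor receptor gene Kit (38 and 46). The globin genes Hbb-bt, Hbb-bs, Hba-a1 and Hba-a2 and the haem synthesis gene Alas2 had no PPP2CA peak. Other haem synthesis genes of the list differed from Alas2. Urod (21 and 21 fragments) and Fech (19 and 17) had a region at a boundary, and Alad had only peaks that did not recur.

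Of 13 relatives used in other tissues, such as Gata4, Gata5, Gata6, Tal2, Lmo1, Lmo3 and Zfpm2, only Nfe2l3 (30 and 31 fragments) had a region at a boundary (7.69%). The count was 2 without PPP2CA 1 and 2 without PPP2CA 2, beside 43.8% and 43.2% of protein-coding genes. The lists were not matched on promoter base composition or on expression in these cells.

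**Figure D4:**
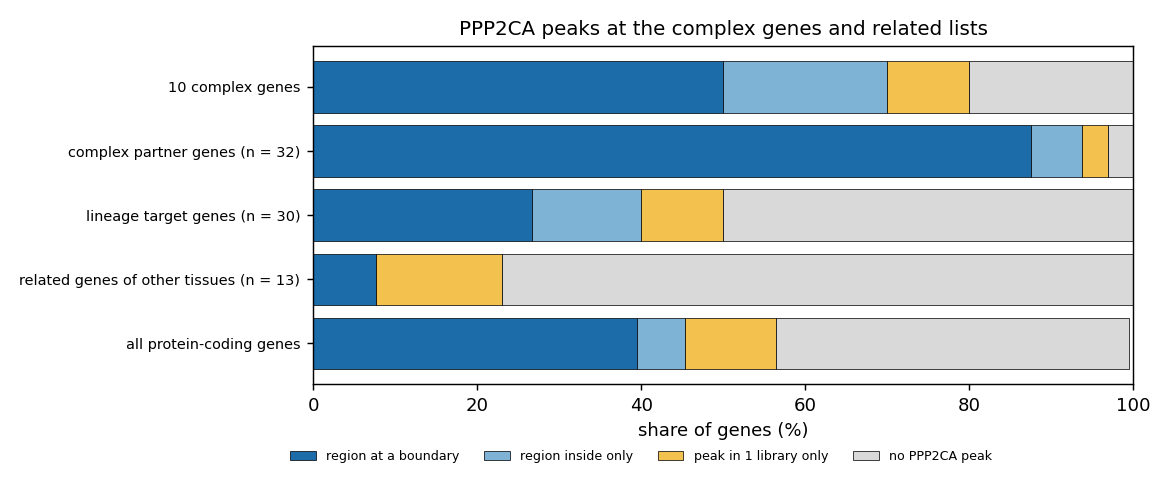
Share of genes, in percent, with a boundary region, a region inside only, only peaks that did not recur (peak in 1 library only) or no PPP2CA peak, for the 10 complex genes, 3 related lists and all protein-coding genes. The partner genes reach 87.5% with a boundary region and the relatives of other tissues 7.69%, beside 39.5% of all protein-coding genes; the gap at the right of the lowest bar is genes whose only regions have an IgG peak.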

How the data were processed

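The authors deposited 1 peak list per library (2 PPP2CA, 2 IgG) in the narrowPeak layout. The build is GRCm38 (mm10), and the tools ChIPseeker, HOMER, deepTools, MACS2, BWA and Trimmomatic were used in roles and with settings that are not stated, per the submitters' processing notes. Each deposited peak has a fold, a −log10 p, a −log10 q, a summit position and a score. The fold is a ratio of the summit to a local background. The score, 10 times the −log10 q cut to a whole number by the values, was not used. The sources used here do not say whether IgG was a control in peak calling. Whether the local background of a PPP2CA peak came from its own library or from IgG is therefore not known.

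Summit fragments were recovered from the fold, read as (fragments + 1) / (background + 1), together with −log10 p, read as a Poisson tail. This gave whole numbers for 100% of peaks in each list (relative error at most 2e-05). The smallest background in a list stood for its genome-wide level: 0.784 and 0.8 fragments in PPP2CA 1 and 2, and 0.0839 and 0.0833 in IgG 1 and 2. Library totals were not analysed here. PCR copies are not separate molecules, so intervals (95%) cover counting error only.

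Overlap was at least 1 bp. PPP2CA peaks were merged into 21771 regions, of which 12631 held both libraries and 12438 of these no IgG peak. Genes came from a RefSeq table of GRCm38.p6, without entries below 3 Mb except on Y. Strand came from the promoter table. Genes and regions were ranked by −log10 q within each library, taking the worse rank. All 10 members, the 3 best of each list, and genes with only an inside region or an IgG peak where there were at most 5 such genes in a list, were to be named. The other list genes, globin genes among them, were named after their values were seen, and so were the peaks outside the genes, Nfix and Hnrnpa1. Of the items the rule names, 1 is not reported here. The 4 genes of the target list with only an inside region were Ank1, Gp9, Hdc and Vwf. The stem cell marker Hlf had an IgG peak, and Lck and Csf1r of the T cell and myeloid markers had only an inside region.

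With 2 libraries per group no permutation p below 0.05 is possible between antibodies, and none is given. The members and lists were chosen with earlier results of these data known. Peak threshold, summit minimum, overlap, window and left-out libraries were varied. Python 3.11.15, numpy 2.4.6, pandas 2.3.3 and scipy 1.17.1 were used, and the recovery and the binomial test were tested on simulated data.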

Additional observations from a re-analysis of the deposited data

How the results depend on the processing

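The 5 members with a region at a boundary (Lyl1, Zfpm1, Tcf3, Nfe2 and Tal1) kept it when −log10 q had to reach 5. They also kept it with summits of at least 20 fragments, with a reciprocal overlap of 50% and with windows of 500 bp. Windows of 2 kb, keeping regions that have an IgG peak, and leaving out any 1 library loosen the rule. These members have a boundary peak in both PPP2CA libraries, so they could not lose their region under those looser settings. Gata2 was added without PPP2CA 1, which gave a range of 5 to 6. With starts of the promoter table, Ldb1 took the place of Nfe2, which has no entry there. The count of members with an inside region was 2 when −log10 q had to reach 5, without Lmo2, and 1 with summits of at least 20 fragments. It was 3 to 5 with 1 library left out (5 without either PPP2CA library, 3 without either IgG library). The target list fell to 5 genes with summits of at least 20 fragments, and the relatives of other tissues numbered 1 to 2 with 1 library left out (2 without either PPP2CA library). The partner list ranged from 24 to 29. The median summit over the 7 members with a recurring region was 90.5 fragments, and 89 to 92 without a PPP2CA library. On the deposited fold scale, a different unit, it was 7.36. No IgG peak was found at the members in the alternatives in which it was counted. Only the window of 2 kb could have added such a peak, since the others only drop IgG peaks or narrow the window. No paired analysis was possible because the counts come from no test and the replicate numbers only name the libraries. The shallow IgG lists limit what can be said of the weaker regions, at Lmo2, Ldb1 and Tal1.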
